A study of Mus musculus with 2 samples.

Results

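The tripartite motif (Trim) genes were examined on 2 single-colour NimbleGen arrays of long-term haematopoietic stem cells (LT-HSCs), the marrow cells that maintain blood formation over the life of an animal. One array carried RNA of cells sorted from cia-cGAS knockout mice (KO), and the other RNA of cells sorted from cia-cGAS wild-type mice (WT). Both groups were C57BL/6 mice aged 8 weeks, kept free of specific pathogens, and cia-cGAS is described in the labels as a circular RNA. The sources used here do not say whether animals were pooled, which surface markers defined the sort, or how the knockout allele was made. Members were all genes whose symbol in the files begins with Trim followed by a digit. This gave 49 genes, measured by 89 transcript rows, of 24203 named genes on the array. Of these, 27 genes had several rows and 22 had 1 row. The row with the higher mean over both arrays is given for each gene, and the other rows are set beside it.

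TRIM proteins share an N-terminal RING finger, 1 or more B-box zinc fingers and a coiled coil, and most act as ubiquitin ligases. Their C-terminal part differs and sets what they bind. Many carry a SPRY domain and act in innate immunity, where they tag viral proteins or signalling proteins with ubiquitin. Others act as transcriptional co-repressors, on the cytoskeleton or in muscle. Several TRIM genes are themselves induced by type I interferon. cGAS, for which the deleted circular RNA is named, is the cytosolic DNA sensor that leads to interferon production.

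With 1 array per group, every difference below describes these 2 samples, has no replicate check and was not tested. Values are RMA intensities on the log2 scale and differences are KO minus WT. RMA (robust multi-array average) equalises the distributions of the arrays, so differences are relative to the other genes. Genes of smell, pheromone and taste receptors, which marrow cells are not known to use, gave the background. The level under which 95% of their 1025 rows lay was taken as the detection floor, 8.97 for KO and 9.11 for WT. Folds are measured where both readings passed their floors. Where 1 reading passed, the fold is a bound, with the floor in place of the other reading, and where neither passed there is no fold. Levels of different genes come from different probes and are not compared. Summed intensities of marker lists weigh their brightest genes most. In sorted cells measured as bulk RNA, fewer cells of a type and less RNA per cell cannot be told apart. Of 14 LT-HSC markers, 9 lay above the floor in KO and 8 in WT. Kit read 12.42 in KO and 12.12 in WT, and Cd34 read 11.73 in KO and 12.24 in WT. Tal1 read 8.69 in KO, below the floor, and 10.10 in WT, and was at least 2.20-fold lower, the 1 marker of this list past 2-fold. Procr, Slamf1 and Fgd5 were among those below both floors. Rows of 1 gene differed among themselves with a pooled SD of 0.37 over 2892 genes with several detected rows, and of 0.48 over the 9 such Trim genes. Such rows share the RNA sample and the array, so this SD does not measure the spread between samples or arrays.

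Trim genes differed in both directions, and the higher ones were neighbours on 1 chromosome. Of the 49 genes, 25 were above the floor on at least 1 array, 21 of them in KO and 23 in WT. Trim30a, Trim34a and Trim12a were at least 2-fold higher in KO, and Trim10 and Trim27 were at least 2-fold lower. That is 3 of 25 genes (12%) higher, beside 5.54% of the 10855 genes above a floor in the whole table, and 2 of 25 (8%) lower, beside 4.06%. Over the 19 Trim genes above both floors, 3 were higher and 1 was lower, beside 5.37% and 4.19% of the 9239 such genes. The median difference of the 25 genes was -0.01, and that of all genes above a floor was -0.02. A positive difference was found in 11 of the 25, beside 48.4% of all genes above a floor. These counts describe the set and no test of it was run.

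**Figure D1:**
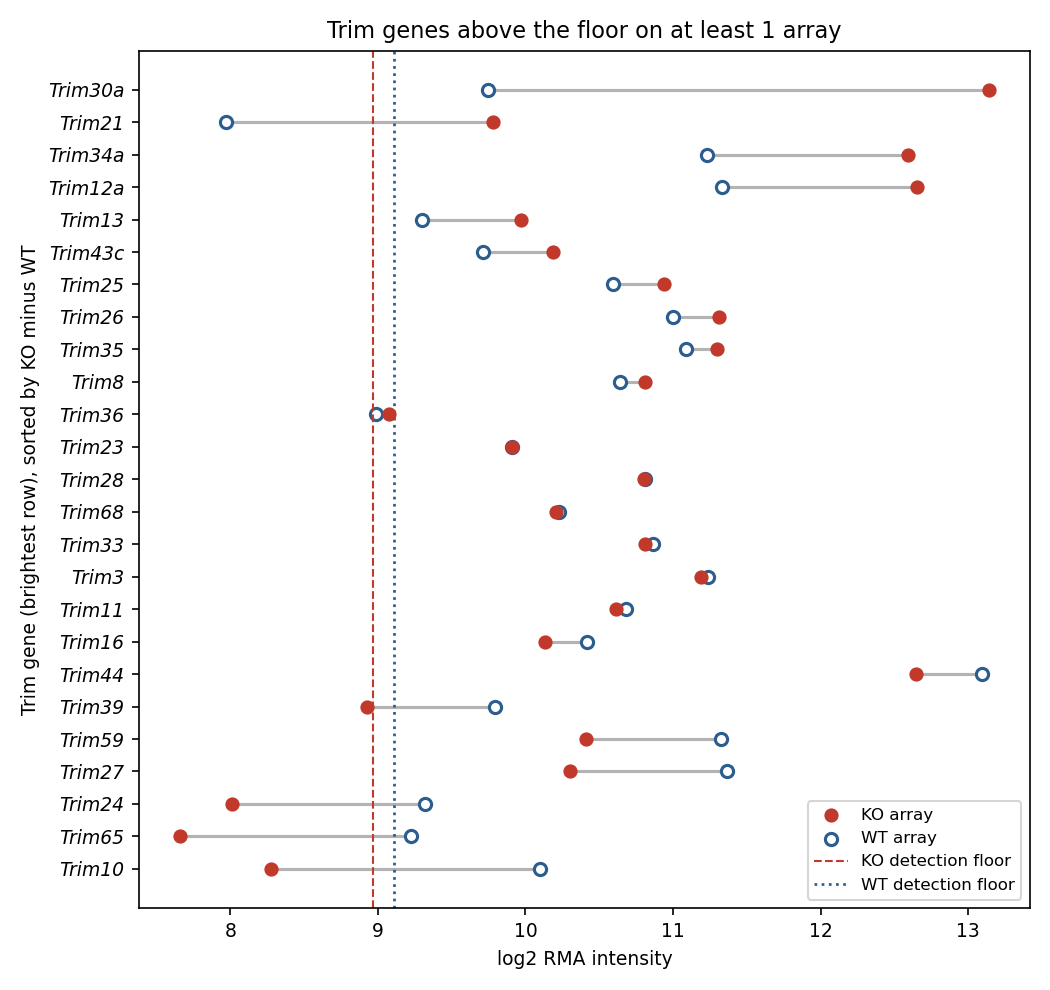
Log2 RMA intensity of the 25 Trim genes above the floor on at least 1 array, with the KO array as filled and the WT array as open circles, 1 array each, and the detection floors as vertical lines. Trim30a has the widest gap, at 13.14 in KO and 9.75 in WT, and most genes in the middle of the plot differ by less than 0.5.

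The mouse Trim30, Trim34 and Trim12 genes encode RING and B-box proteins that are related to TRIM5, the primate restriction factor that binds retroviral capsids. All 3 of their detected members were higher in KO. Trim30a, which in mouse macrophages is known to restrain Toll-like receptor signalling by promoting loss of TAB2 and TAB3, read 13.14 in KO and 9.75 in WT. Its intensities were 9041 in KO and 860 in WT. It was 10.5-fold higher, a difference of 3.39, and its other detected row differed by 1.54, so the 2 rows share the direction and not the size. This gene is Trim30 in the files (gene ID 20128), with its row on chromosome 7 from 111557539 to 111613641 of the MM9 assembly in the files' annotation.

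Trim34a (Trim34 in the files, gene ID 94094) read 12.59 in KO and 11.23 in WT, which made it 2.56-fold higher. Its other rows differed by 1.25 and 2.51, the last of these being above the floor in KO alone. Trim12a (Trim12 in the files, gene ID 76681) read 12.65 in KO and 11.33 in WT, which made it 2.51-fold higher. Its other rows differed by 1.62 and, below both floors, 1.11. All rows of the 3 genes thus lay above a difference of 1. The annotated span of the Trim34a row, from 111392970 to 111489198, covers that of the Trim12a row, from 111452108 to 111463980. Trim6, the remaining member of this neighbourhood, was below both floors, at 6.93 in KO and 6.47 in WT.

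Further genes that RefSeq now names Trim stand in the files under older symbols, and the rule therefore left them out. There were 6 of them, with 10 rows, and they are given here as a comparison that was chosen after values had been seen. Trim30d read 14.16 in KO and 11.49 in WT and was 6.35-fold higher, with a difference of 1.60 in its other row. Trim30c read 12.67 in KO and, below the floor, 8.88 in WT, and was at least 11.8-fold higher. Trim30b read 11.78 in KO and, below the floor, 8.16 in WT, and was at least 6.35-fold higher, with differences of 2.41 and 2.46 in its other rows. Each of the 4 Trim30 genes was thus far above its WT reading, although close copies of a gene can share hybridisation and single members are uncertain.

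Trim12c read 12.97 in KO and 11.75 in WT and was 2.34-fold higher, a difference of 1.22. Its other row had a larger difference, 2.15 on the log2 scale. Trim5 differed from these neighbours. It read 9.40 in KO and 9.22 in WT, a difference of 0.18 from a single row near the floor. Trim43b, a relative of genes of the germ line and early embryo outside this neighbourhood, was below both floors.

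These 9 Trim genes, 4 members and 5 under older symbols, lie within 289 kb of chromosome 7, between 111367308 and 111656339 of MM9. Of the 8 detected, 7 were at least 2-fold higher in KO, beside 5.54% of all genes above a floor, and 0 lower. The median difference was 2.01, and 1.34 over the 6 genes above both floors. The only other named gene whose row lies inside the span, Gm15133, read 11.77 in KO and, below the floor, 8.997 in WT. Against the WT floor it was higher by at least 2.66 on the log2 scale. Of the 27 genes within 300 kb on either side, 0 were above a floor. Their highest readings were 7.67 in KO and 8.61 in WT. Since 21 of them are receptor genes of the kind that set the floor, this is no independent control. Outside the cluster, 22 of 45 Trim genes were detected, with a median difference of -0.03. Of these, 0 were at least 2-fold higher and 2 (9.09%) were lower, beside 5.54% and 4.06% of all genes above a floor.

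**Figure D2:**
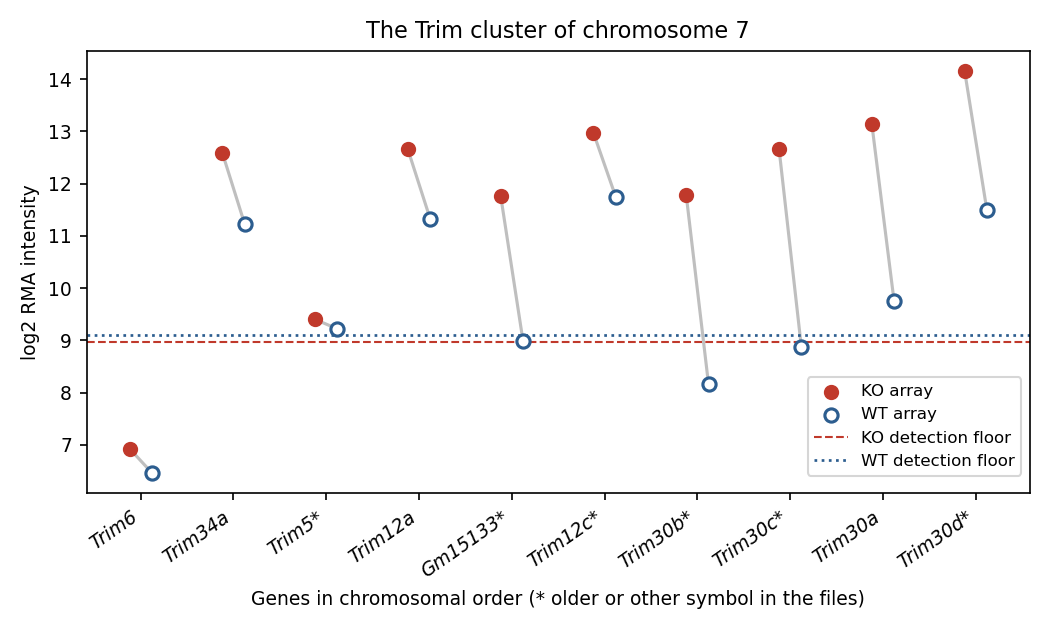
Log2 RMA intensity of the genes inside the chromosome 7 Trim cluster in chromosomal order, for the KO array (filled) and the WT array (open), with the detection floors as horizontal lines. From Trim12a to Trim30d each KO reading stands above its WT reading by more than 1, whereas Trim5 reads 9.40 in KO and 9.22 in WT and Trim6 lies below both floors.

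The interferon-stimulated response element (ISRE), a DNA motif bound by IRF proteins, was looked for near the start sites of the Trim genes. Its core was taken as GAAA, any 2 bases and GAAA, on both strands, with overlapping matches allowed. The windows were RefSeq promoters of the GRCm38.p6 assembly, from 250 bases before to 50 bases after a start site, and 35 of the 49 members had at least 1 entry. Among these, 6 genes (17.1%) held a match, against 3.99% of all 27025 genes with an entry. All 3 genes that were at least 2-fold higher in KO held one, and so did 3 of the other 32, namely Trim21, Trim26 and, at 1 of its starts, Trim2. Per promoter, the share was 3.44% of all 32851. The gamma-activated sequence TTCNNNGAA, the same on both strands, was held by 4 of the 35 members (11.4%) and by 9.55% of all genes. A match describes the letters and was not tested for binding.

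The matches of the chromosome 7 cluster and of Trim21 and Trim26 are shown so that the letters of neighbouring genes can be set beside their differences and beside matches outside the cluster. Each is printed 5′ to 3′ on the strand of its gene, with the matched bases in capitals and 15 bases on either side.

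Trim30a, chr7:104465205-104465244, minus strand: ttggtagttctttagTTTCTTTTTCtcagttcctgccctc

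Trim30a, other start, chr7:104446099-104446138, minus strand: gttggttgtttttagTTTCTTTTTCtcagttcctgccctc

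Trim30d, chr7:104507866-104507905, minus strand: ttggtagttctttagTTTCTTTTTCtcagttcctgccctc

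Trim34a, chr7:104244452-104244491, plus strand: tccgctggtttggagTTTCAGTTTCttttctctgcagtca

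Trim12a, chr7:104315461-104315500, minus strand: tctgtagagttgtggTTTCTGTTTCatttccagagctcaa

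Trim12c, chr7:104353354-104353393, minus strand: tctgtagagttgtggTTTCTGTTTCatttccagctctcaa

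Trim5, chr7:104288131-104288170, minus strand: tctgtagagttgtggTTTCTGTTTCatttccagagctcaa

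Trim21, chr7:102565439-102565484, minus strand: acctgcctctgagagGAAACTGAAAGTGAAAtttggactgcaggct

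Trim26, chr17:36836971-36837016, plus strand: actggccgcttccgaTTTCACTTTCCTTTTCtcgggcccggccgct

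Over these 40 bases, the first Trim30a window and that of Trim30d were identical, with 0 mismatches, and the second Trim30a window differed from the first at 7 positions. The Trim12a and Trim5 windows were also identical, and Trim12c differed from each at 2 positions. The promoters of Trim30b and Trim30c held no match in this window for the ISRE core, and that of Trim30c held the gamma-activated sequence. The Trim21 and Trim26 windows each hold 2 overlapping matches. For reference, the whole RefSeq promoter of Trim30a at chr7:104465144-104465443, minus strand, reads as follows.

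Trim30a promoter: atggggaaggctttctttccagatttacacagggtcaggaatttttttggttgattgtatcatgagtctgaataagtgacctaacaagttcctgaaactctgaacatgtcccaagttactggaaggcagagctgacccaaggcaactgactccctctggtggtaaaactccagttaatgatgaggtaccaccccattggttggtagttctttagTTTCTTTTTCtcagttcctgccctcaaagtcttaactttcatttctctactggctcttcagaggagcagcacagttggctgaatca

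Other TRIM genes of antiviral and inflammatory signalling lay on both sides of 0. Of 16 measured, 12 were above a floor, and the median difference was -0.01. Of these, 0 reached 2-fold upward and 1 (8.33%) downward, beside 5.54% and 4.06% of all genes above a floor. Trim21, a cytosolic receptor for antibody-coated virus that is also an autoantigen, read 9.78 in KO and, below the floor, 7.97 in WT. It was at least 1.59-fold higher, and it passed 2-fold when the median row of each array served as floor. Its single row lies on chromosome 7 from 109706437 to 109713936 of MM9, outside the cluster.

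Trim25, the ubiquitin ligase that activates the RNA sensor RIG-I, read 10.94 in KO and 10.59 in WT, a difference of 0.35, and its other row differed by 0.56. Trim26, whose product acts on IRF3 signalling, read 11.31 in KO and 10.998 in WT. Its other row, below both floors, differed by 1.57, and the mean of both rows by 0.94. Trim13, an endoplasmic reticulum protein, read 9.97 in KO and 9.30 in WT, a difference of 0.67. In their brightest rows these 3 genes were below 2-fold, and Trim25 and Trim26 differed there by less than the SD of 0.37 between rows of a gene, which their other rows exceeded.

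Trim56 and Trim14, which are described as cofactors of antiviral signalling, were below both floors. Trim56 read 8.85 in KO and 7.58 in WT, and Trim14 read 8.76 in KO and 8.52 in WT, so neither has a fold. Trim8, Trim11, Trim23 and Trim68 had differences from -0.07 to 0.17. Trim62 and Trim31 were below both floors.

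Trim65, Trim39 and Trim59 read lower in KO by less than a 2-fold measured fold or bound. Trim65, a ligase of the RNA sensor MDA5, read 7.66 in KO, below the floor, and 9.23 in WT. It was at least 1.20-fold lower, and its other row, below both floors, differed by -1.41. Trim39 read 8.93 in KO, just under the floor, and 9.79 in WT, and was at least 1.78-fold lower, with -0.48 and 0.13 in its other rows. Trim59, a membrane-anchored member, read 10.41 in KO and 11.33 in WT and was 1.89-fold lower. Trim27, a nuclear and cytoplasmic repressor first known as the RET finger protein, passed 2-fold. It read 10.30 in KO and 11.37 in WT and was 2.09-fold lower, from a single row (gene ID 19720, chromosome 13 from 21272294 to 21284722 of MM9).

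Trim10 encodes a RING protein linked to the terminal maturation of red cells. It read 8.28 in KO, below the floor, and 10.10 in WT, and was at least 2.19-fold lower (gene ID 19824, chromosome 17 from 37006545 to 37014772 of MM9, single row). With the floor at the 99th percentile of receptor rows, 10.19 in WT, it was below both floors. Erythroid markers were lower on the same array. Of 14 measured, 12 were above a floor, all 12 had a negative difference, and the median was -1.01. At least 2-fold lower were 4 of these 12 (33.3%), beside 4.06% of all genes above a floor. The summed intensity of the list was 90486 in KO and 117598 in WT, with Klf1 and Epor below both floors. B lineage markers were lower too, with a summed intensity of 5002 in KO and 23473 in WT. Of 10 detected, 0 had a positive difference, beside 48.4% of all genes above a floor. At least 2-fold lower were 7 of these 10 (70%), beside 4.06% of all genes above a floor. Cd79a and Igll1 of that list were among those below both floors. The part of these cell types in the lower readings of Trim10 and Trim27 was not tested.

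The TIF1 genes encode nuclear co-regulators that add a PHD finger and a bromodomain to the tripartite motif. Trim28, also known as KAP1, silences transposons together with SETDB1. It read 10.80 in KO and 10.81 in WT. Trim33, which acts on SMAD signalling, read 10.81 in KO and 10.86 in WT. Both differences, -0.01 and -0.05, lie within the SD between rows. Trim24, a cofactor of nuclear receptors, read 8.01 in KO, below the floor, and 9.32 in WT. It was at least 1.28-fold lower, and its other row, below both floors, differed by -0.40 where the first differed by -1.31. Trim66 was below both floors, at 8.62 in KO and 7.96 in WT. None of the 3 detected TIF1 genes passed 2-fold, beside 5.54% higher and 4.06% lower among all genes above a floor. With 3 genes this count says little.

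**Figure D3:**
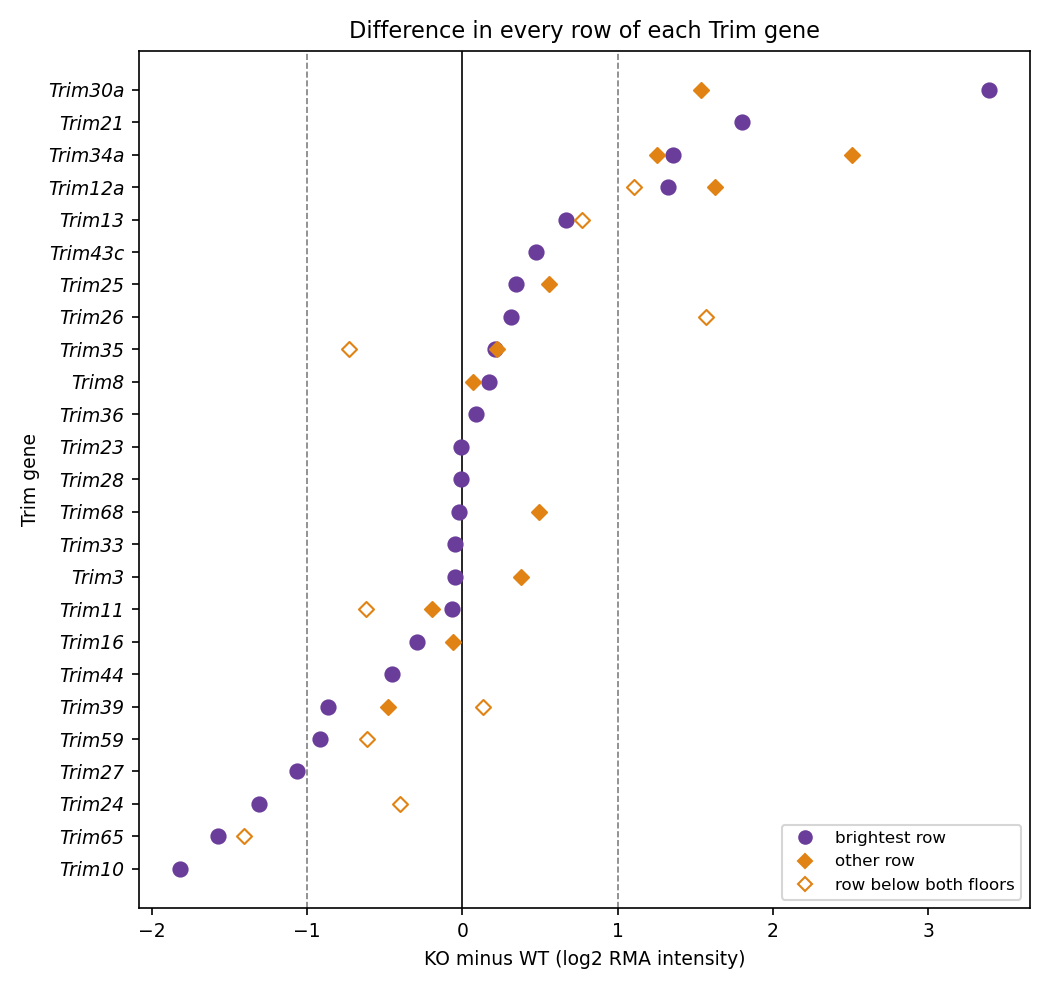
Difference between KO and WT on the log2 scale for every transcript row of the 25 Trim genes above a floor, with the brightest row as a circle and the others as diamonds, open where a row is below both floors. All rows of Trim30a, Trim34a and Trim12a lie right of the dashed line at 1, and rows of Trim26 and Trim39 lie far apart.

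Of 11 members placed in no role group, 3 were detected. Trim44, which has a B-box but no RING finger, read 12.65 in KO and 13.10 in WT, a difference of -0.45. Trim35 read 11.30 in KO and 11.09 in WT, and Trim16 read 10.13 in KO and 10.42 in WT. The 8 others, Trim7, Trim15, Trim17, Trim29, Trim37, Trim45, Trim47 and Trim50, were below both floors. Among 7 genes linked to the cytoskeleton and neurons, Trim3 read 11.19 in KO and 11.24 in WT, and Trim36 read 9.07 in KO and, under its floor, 8.99 in WT. Trim2, Trim9, Trim32, Trim46 and Trim67 were below both floors.

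The muscle genes Trim54, Trim55 and Trim63 (MuRF proteins of the sarcomere) were below both floors. Of 8 markers of muscle, 2 were above a floor on KO and 1 on WT, and the myosin genes Myh1, Myh2 and Myh4 were below both. Trim43c, of the family active in early embryos, read 10.18 in KO and 9.71 in WT, while Trim61 and Trim69, of the testis, were below both floors. In all, 24 members had no reading above a floor, with values from 5.33 to 8.85 in KO and from 5.59 to 9.01 in WT. These genes have no fold here.

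Of the 27 members with several rows, 18 had rows that all differed in the same direction. Among the 19 members above both floors, 11 differed by no more than the SD between rows of 0.37. These were Trim3, Trim8, Trim11, Trim16, Trim23, Trim25, Trim26, Trim28, Trim33, Trim35 and Trim68. Trim44, at -0.45, and Trim43c, at 0.47, lay within the SD of 0.48 between rows of Trim genes. The members above both floors and under 2-fold ranged from -0.92 for Trim59 to 0.67 for Trim13.

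Genes that act with TRIM proteins were set beside them. Of 15 enzymes that charge ubiquitin or pass it to RING ligases, 14 were above both floors, and the median difference was 0.17. Of these 14, 0 passed 2-fold in either direction, beside 5.37% higher and 4.19% lower among all genes above both floors. Ube2n, which with Ube2v1 builds the chains made with TRIM5-like proteins, read 13.06 in KO and 12.90 in WT. It was chosen after its value was seen. Of 18 signalling partners and substrates measured, 13 passed a floor. Of these, 6 were higher in KO by 2-fold or more, beside 5.54% of all genes above a floor, and 0 lower. The median was 1.85 over these 13, where 5 WT readings were below the floor, and 0.51 over the 8 genes above both floors. Ifih1 (the MDA5 sensor) was at least 14.6-fold, Ddx58 (RIG-I) 14.8-fold and Irf7 at least 7.62-fold higher. Tab2, the Trim30a substrate, read 12.13 in KO and 11.96 in WT, a value chosen after it was seen.

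Of 19 partners of TIF1 proteins, 18 were detected, with a median of 0.13. Of these, 1 was higher and 1 lower (5.56% each), beside 5.54% and 4.06% of all genes above a floor. Daxx, a histone chaperone, was 4.69-fold higher, and Mphosph8, a subunit of the HUSH silencing complex, was 2.46-fold lower. Of 11 TRIM-like proteins under other names, 6 were detected and 1 (16.7%) was at least 2-fold higher, beside 5.54% of all genes above a floor. This was Pml (TRIM19), the scaffold of nuclear bodies, which read 11.09 in KO and 9.78 in WT and was 2.48-fold higher. Mefv, the gene of pyrin (TRIM20), read 9.07 in KO and 6.51 in WT. The KO reading was above its floor but below that of WT, so no fold is given. Mid1 (TRIM18), a microtubule protein, read 8.33 in KO, below the floor, and 9.74 in WT, and was at least 1.71-fold lower.

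**Figure D4:**
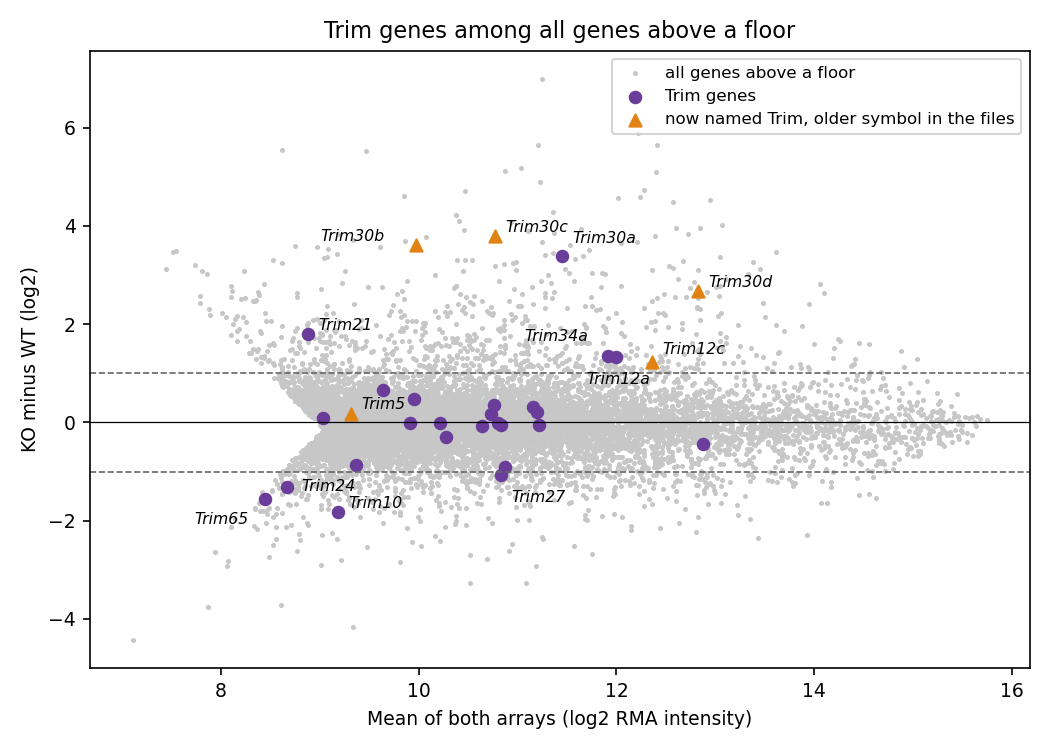
Difference between KO and WT against the mean of both arrays, both on the log2 scale, for all 10855 genes above a floor (grey), the 25 Trim genes (circles) and the 5 detected genes now named Trim that the files list under older symbols (triangles). Trim30a, at 3.39, and the Trim30 triangles stand in the upper part of the plot, and most circles lie between the dashed 2-fold lines.

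Interferon-stimulated genes without a Trim symbol were set beside the Trim genes as well. Ifih1, Ddx58 and Irf7, given above among the signalling partners, also stand in this list, so the lists are not separate. Of 35 measured, 34 passed a floor and 29 of those (85.3%) were higher in KO by 2-fold or more, beside 5.54% of all genes above a floor. The median difference was 2.94, or 2.87 over the 27 above both floors. For the 25 detected Trim genes that median was -0.01, and for the chromosome 7 cluster, older symbols included, it was 2.01. Differences between these sets were not tested. Summed markers of mature myeloid cells were higher in KO, with members on both sides of 0. Neutrophil markers had a summed intensity of 253864 in KO and 186811 in WT, with Prtn3 and Cebpe below both floors. Of 13 detected, 12 were positive, beside 48.4% of all genes above a floor. Of the same 13, 3 (23.1%) were at least 2-fold higher, beside 5.54% of all genes above a floor. Their median difference was 0.38. Monocyte and macrophage markers had sums of 112456 in KO and 84396 in WT. Of 12 detected, 8 were positive and 4 negative, beside 48.4% positive among all genes above a floor. At least 2-fold higher were 3 (25%), beside 5.54% of all genes above a floor. Their median difference was 0.50 over these 12 and 0.26 over the 10 above both floors. The part of these cell types in the higher readings of the cluster was not tested.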

How the data were processed

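Total RNA was primed with oligo dT, labelled with Cy3 and hybridised to NimbleGen arrays, per the labels' protocols. The deposited values are RMA intensities on a linear scale, 1 for each transcript row. RMA is named in the submitters' processing notes without a version, and the set of arrays it was run on is unstated. Most rows rest on 3 probes (44155 of 44171), and rows are placed on MM9, per the file headers and annotation, which do not state whether counting starts at 0 or 1. A series-wide table held the same intensities, to within 1.28e-06 on the log2 scale, with column medians of 271 for KO and 273 for WT.

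Intensities were turned into log2 values and not normalized again. Gene IDs were matched to a RefSeq table of GRCm38.p6 for current symbols, and all 49 member IDs were found. Of the 41886 rows with a gene ID and symbol, 39057 matched. Files' coordinates are MM9 and sequences are RefSeq GRCm38.p6, and no position was converted. Precision is limited by the number of arrays, 1 per group, which allows no test between KO and WT. The members, role groups and lists were chosen with earlier results of these data known. The naming rule took members that reached 2-fold, measured or as a bound, those with the highest levels, and the TIF1, erythroid-linked and best known antiviral genes, and from each other list at most the 3 highest and 3 lowest genes past 2-fold. Other genes with values, such as Trim13, Trim39, Trim59, Kit, Cd34, Gm15133, Mefv, Mid1, Tab2 and Ube2n, were picked after their values were seen. The code that counts calls was tested on simulated data, which says nothing of the spread between animals. Alternatives were other floors (the 99th percentile of receptor rows, the median of all rows, none), row means, loess centring (span 0.3), the series-wide table and folds of 1.5 and 3. Python 3.11.15, pandas 2.3.3, numpy 2.4.6 and statsmodels 0.14.6 were used. Some single marker genes are not reported here.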

Additional observations from a re-analysis of the deposited data

How the results depend on the processing

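The count of 3 higher Trim genes (Trim12a, Trim30a and Trim34a) was the same with the 99th percentile floor, with row means, after loess centring, from the series-wide table and over genes detected on both arrays. It was 4 with each array's median row as floor, which added Trim21, 5 at 1.5-fold, 1 at 3-fold, 0 without the Trim12, Trim30, Trim34 and Trim43 genes, and 7 with the older symbols, an alternative chosen after seeing the data. The count of 2 lower genes became 1 with the 99th percentile floor and 1 over genes detected on both arrays, Trim10 dropping out in each case. With the 99th percentile floor its WT reading of 10.10 lay under the floor of 10.19. Over genes detected on both arrays it was left out by construction. It was 4 with each array's median row as floor, which added Trim24 and Trim65, 4 at 1.5-fold and 0 at 3-fold. The number of Trim genes above the floor in WT was 15 with the 99th percentile floor. The median difference of Trim genes ran from -0.05, without the Trim12, Trim30, Trim34 and Trim43 genes, to 0.13 with the older symbols, and changed sign under some alternatives. Of 51 values of single named genes under alternatives, 44 moved by less than the SD between rows. These 44 include every value from the series-wide table, which holds the same intensities and could not move any. They also include every value after loess centring. The count of 44 is thus no measure of robustness. The 7 others came from other rows or row means of Trim24, Trim26, Trim30a and Trim34a, and none changed sign. For Trim30a the row mean gave 2.46. No paired analysis was possible because each group has 1 array.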
